A study of Mus musculus with 28 samples.

Results

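The nuclear-encoded subunits of respiratory complexes II, III, IV and V were followed with age in 4 tissues of female mice of the inbred strain C57BL/6J, killed at 24 or at 6 months. Members were the genes whose platform symbol begins Uqcr, Cox4 to Cox8 or Atp5, or is Sdha, Sdhb, Sdhc, Sdhd or Cyc1, on both array types used. A gene was taken where at least 1 probe set (the group of probes that measures 1 transcript) carried its symbol alone, and the probe set of highest mean stood for it. This gave 46 of the 18974 genes measured in all tissues: 4 of complex II, 9 of complex III, 17 of complex IV and 16 of complex V. A further 6 symbols matched on 1 array type only and were no members. Liver and quadriceps, a thigh muscle, had 3 arrays at 24 months (103 weeks) and 3 at 6 months (24 weeks). Heart and gastrocnemius, a calf muscle, had 4 arrays at each age on the second array type, giving 28 arrays in all. All mice ate standard chow and were killed after a night without food, and none carried a transgene or received a drug, as far as the labels say. Expression is given on the log2 scale, where 1 unit means a factor of 2, and levels of different probe sets are not compared with each other. The labels tie no array to an animal, and the p-values therefore cover only the variation among these samples, which may be technical. In tissue RNA, fewer cells of a type and less RNA per cell cannot be told apart.

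Complexes II, III and IV pass electrons from succinate and ubiquinol to oxygen in the inner mitochondrial membrane. Complexes III and IV pump protons as they do so, and complex V, the ATP synthase, uses the returning protons to make ATP. Complex II is wholly encoded in the nucleus, whereas the catalytic core of complex IV and parts of complexes III and V are encoded in mitochondrial DNA. Several complex IV subunits exist as a pair of genes, with one form found in liver and most other tissues and another in heart and skeletal muscle.

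The tissues matched their labels. Albumin (Alb) reached 14.09 to 14.16 on the liver arrays and the cardiac myosin gene Myh6 13.16 to 13.29 on the heart arrays. The fast-fibre myosin gene Myh4 reached 13.70 to 13.83 in quadriceps and 13.55 to 13.62 in gastrocnemius. Some arrays stood apart in markers of other cells. The mean of 5 hepatocyte markers was 8.78 in quadriceps 24-month replicate 1, against 6.09 to 7.32 in the other quadriceps arrays. The mean of the 8 measured of 10 exocrine pancreas markers was 9.62 in liver 24-month replicate 2, against 6.00 to 6.49 in the other liver arrays. The mean of 6 slow-fibre markers reached 9.19 in quadriceps 6-month replicate 3, against 6.23 to 7.80 in the other quadriceps arrays. In heart the mean of 5 atrial markers spanned 7.19 to 9.65 at 24 months and 8.59 to 10.01 at 6 months. The hepatocyte mean was 6.76 in heart 6-month replicate 2, against 5.27 to 6.14 in the other heart arrays. Gastrocnemius 24-month replicate 1 had a B and plasma cell marker mean of 6.19, against 4.92 to 5.29 in the other gastrocnemius arrays. Its T cell marker mean was 5.83, against 5.08 to 5.24.

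No member passed the threshold for an age difference in any tissue (limma, Benjamini-Hochberg adjusted over all genes of the tissue, 0.05). Most members nevertheless lay lower at 24 months in 3 of the tissues: 36 of 46 in liver, 33 in quadriceps and 36 in gastrocnemius, against 13 in heart. Under quantile normalization 28 members lay lower in gastrocnemius, and in heart 25 did so with centred arrays and 20 without 24-month replicate 1. The median difference, 24 minus 6 months, was -0.10 log2 units in liver, -0.06 in quadriceps, 0.01 in heart and -0.14 in gastrocnemius, where the medians of all genes were 0.03, 0.01, 0.01 and 0.01. Under quantile or cyclic loess normalization the liver median was -0.04 and the gastrocnemius median -0.08, and with arrays centred on their medians the liver median was -0.19 and the heart median -0.01. Of all genes, 45.1% lay lower at 24 months in liver, 46.4% in quadriceps, 43.2% in heart and 44.0% in gastrocnemius. Calls were rare among all genes as well, with 65 genes or 0.326% in liver, 0.00502% in quadriceps, 0.00665% in heart and 0.00998% in gastrocnemius. At an unadjusted p under 0.05 stood 11 members in liver, where 32.8% of all genes did so, 3 in quadriceps against 7.05%, 0 in heart against 5.99% and 18 in gastrocnemius against 16.5%. In gastrocnemius 17 of those 18 were lower at 24 months, and in liver 9 of 11. These counts moved with the processing. The share of all genes at the same p stands in brackets. The liver count was 4 under quantile (22.6%) or cyclic loess normalization (23.1%) and 23 with centred arrays (34.7%). It was 19 with array weights (50.8%) or with the intensity trend (34.1%), and 5 to 15 with each array left out (22.3% to 43.0%). Leaving out 24-month replicate 2 gave 5 members (22.3%). Leaving out 24-month replicate 1 (22.3%) or 6-month replicate 3 (23.2%) gave 7. The gastrocnemius count was 12 under quantile normalization (15.3%) and 10 to 25 with each array left out (11.6% to 21.2%). It was 10 when replicate 4 at 24 months (14.0%) or replicate 3 at 6 months (12.8%) was absent. Without replicate 2 at 24 months (12.1%) or at 6 months (11.6%) it was 11. The quadriceps count was 0 in the absence of replicate 1 at 24 months (7.94%) or 6 months (6.88%), or of replicate 3 at 6 months (7.93%). It was 1 in the absence of replicate 2 at 6 months (5.51%). That of heart was 4 without 24-month replicate 4, where 9.39% of all genes did so.

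**Figure D1:**
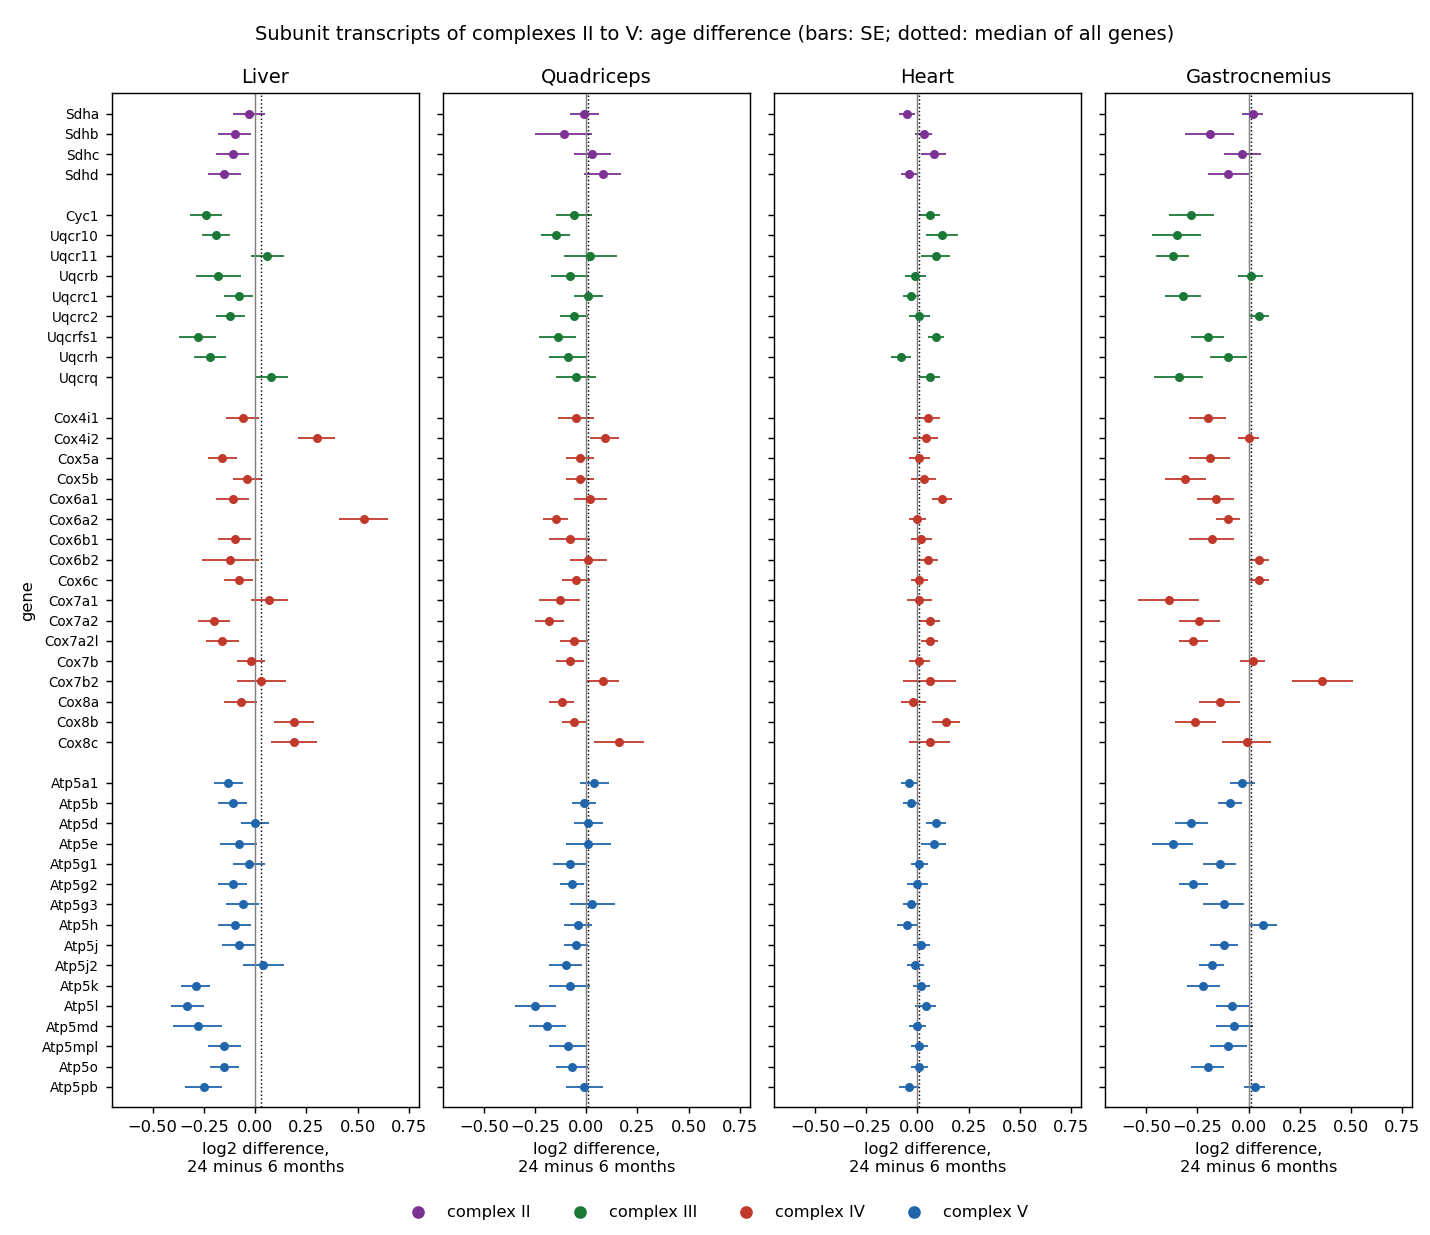
Each point is 1 of the 46 subunit genes, and the horizontal axis is the log2 difference, 24 minus 6 months, with its SE from the limma fit. Panels are tissues, colours are complexes, and the dotted line is the median of all genes; heart differences lie between -0.08 and 0.14, while those of gastrocnemius span -0.39 to 0.36.

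For some members the 2 ages did not overlap. In liver the values of 19 members at 24 months all lay below those at 6 months, as for 17.4% of all genes, and 3 members (Cox4i2, Cox6a2 and Cox8b) lay wholly above, as for 18.7% of all genes. In quadriceps 6 members lay wholly below (5.33% of all genes) and 0 above (6.69%). The 6 were Uqcr10, Cox6a2, Cox7a2, Cox8a, Atp5g2 and Atp5l. In gastrocnemius 7 lay wholly below (4.78%) and 0 above (3.86%), namely Uqcr11, Uqcrc1, Cox7a2l, Atp5d, Atp5e, Atp5g2 and Atp5j2. In heart 0 lay below (1.36%) and only Uqcrfs1 lay above (1.94%). Lower in liver, quadriceps and gastrocnemius at once were 21 members, 45.7%, against 12.4% of the genes measured in all tissues. Among them were Sdhb of complex II, Cyc1 and Uqcrfs1 of complex III, Cox4i1, Cox5a and Cox5b of complex IV, and Atp5b, Atp5k and Atp5l of complex V. The quadriceps part of that count leaned on 24-month replicate 1, without which 20 members were lower there and 25 higher. Most members were also among the most highly expressed genes, whose median over all genes was -0.08 in liver and -0.08 in gastrocnemius.

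The array medians show which samples carried these differences. Each value is the median over members of the deviation from the 6-month mean. In liver it was -0.09, -0.10 and -0.09 in the 24-month arrays and between -0.01 and 0.02 in the 6-month arrays, so the groups were apart. In quadriceps the 24-month values were -0.16, 0.00 and 0.01 and the 6-month values -0.04, -0.01 and 0.04. Only 24-month replicate 1 was low there, the array with the highest hepatocyte markers, and without it the median difference of the members was 0.01, with 20 members lower and 25 higher. In quadriceps 5 fibroblast markers averaged 8.89 to 9.05 at 24 months and 9.08 to 9.21 at 6 months, without overlap. Without quadriceps 6-month replicate 3, the array with the highest slow-fibre markers, the members' median was -0.03. In heart all arrays lay between -0.02 and 0.03. In gastrocnemius the 24-month values were -0.14, -0.23, 0.00 and -0.27 and the 6-month values -0.09, 0.02, 0.16 and -0.08. The gastrocnemius groups overlapped, since 24-month replicate 3 lay above 6-month replicates 1 and 4. Without 6-month replicate 3 the gastrocnemius median was -0.09, and without 24-month replicate 3 it was -0.19. Slow-fibre markers spanned 6.70 to 7.89 in gastrocnemius at 24 months and 6.82 to 8.17 at 6 months, with replicate 4 lowest at each age. In the same arrays 4 endothelial markers averaged 7.64 to 8.22 at 24 months and 7.97 to 8.34 at 6 months, and the 4 measured of 5 fibroblast markers 8.25 to 8.41 at 24 months and 8.48 to 8.77 at 6 months, without overlap. The part of these markers in the members' values was not tested.

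**Figure D2:**
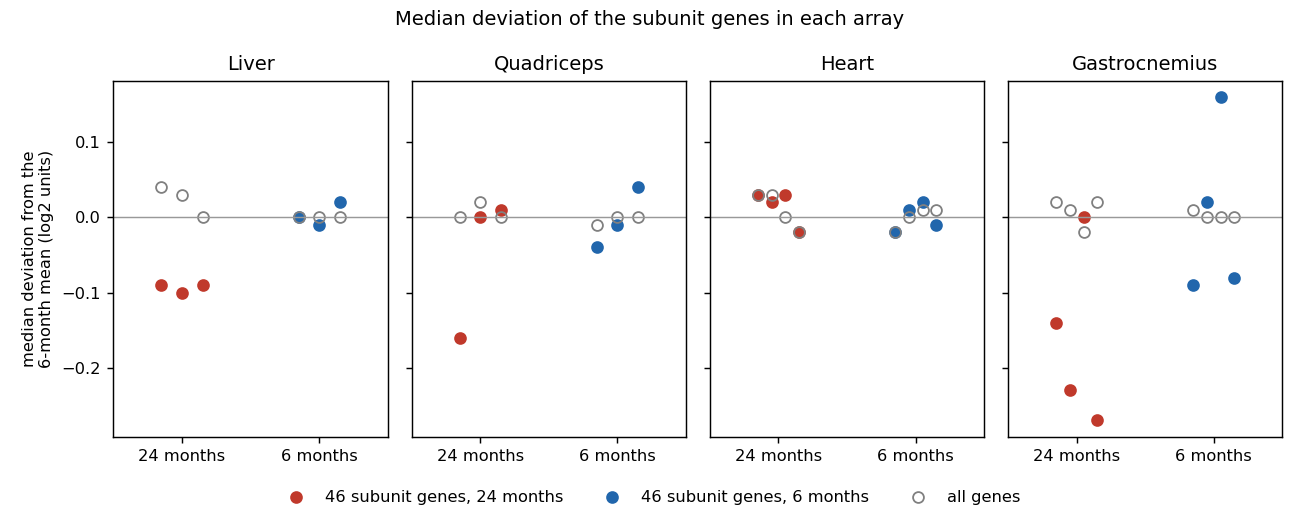
Filled points give, for each array, the median over the 46 subunit genes of the deviation from the gene's 6-month mean in that tissue (log2 units, vertical axis), and open points the same over all genes. In liver the 24-month arrays sit at -0.10 to -0.09, in quadriceps 1 of 3 lies at -0.16, and in gastrocnemius the arrays range from -0.27 to 0.00 at 24 months and from -0.09 to 0.16 at 6 months.

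Age differences of all genes varied with the level of expression in liver and gastrocnemius. When genes were split into 10 classes of equal size by their mean level in the tissue, 35 members fell into the highest class in liver, with a median of -0.11, against -0.08 for all genes of that class, and 4 members in the class below had -0.22 against -0.14. In the highest class of gastrocnemius 33 members had a median of -0.14, against -0.08 for all its genes, and 7 members in the class below had -0.22 against -0.05. The 40 members in the highest class of quadriceps had -0.06 against 0.00, and the 36 in that of heart 0.01 against 0.00. These are descriptions with no test.

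Complex II oxidises succinate and is also an enzyme of the citric acid cycle. The medians of its 4 genes were -0.11 in liver, 0.01 in quadriceps, 0.00 in heart and -0.07 in gastrocnemius. All 4 were lower at 24 months in liver, and Sdhd, a membrane anchor, had the smallest p at -0.15 (SE 0.08, adjusted p = 0.23). In gastrocnemius Sdhb, the iron-sulphur subunit, was at -0.19 (SE 0.12, adjusted p = 0.468), whereas Sdha, the flavoprotein that binds succinate, was at 0.02 (SE 0.05). In quadriceps Sdhd had the smallest p at 0.08 (SE 0.09, adjusted p = 0.893), and in heart Sdhc, the other anchor, at 0.08 (SE 0.06, adjusted p = 0.95).

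Complex III takes electrons from ubiquinol to cytochrome c. It had the lowest medians of the 4 complexes in liver and gastrocnemius, -0.18 in liver (7 of 9 lower) and -0.28 in gastrocnemius (7 of 9 lower), with -0.06 in quadriceps (7 lower) and 0.06 in heart (3 lower). Uqcr11, a small subunit of the complex, had the smallest p of all members in gastrocnemius. Its values there were 7.37, 7.39, 7.49 and 7.22 at 24 months, against 7.61, 7.77, 7.91 and 7.66 at 6 months. The groups did not overlap, and the means were 7.37 ± 0.11 at 24 months and 7.74 ± 0.13 at 6 months (SD, n = 4 each), a difference of -0.37 (SE 0.08) or 0.77-fold, which did not pass the threshold (adjusted p = 0.103). In liver the same gene was at 0.06 (SE 0.08), in quadriceps at 0.02 (SE 0.13) and in heart at 0.09 (SE 0.07).

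Uqcrc1, a core subunit, averaged 11.31 ± 0.14 in gastrocnemius at 24 months and 11.63 ± 0.14 at 6 months, a difference of -0.32 (SE 0.09, adjusted p = 0.141). Its partner Uqcrc2, the other core subunit, was at 0.05 (SE 0.05) in the same arrays. Uqcr10, Uqcrq and Cyc1 were at -0.35, -0.34 and -0.28 in gastrocnemius. Of these, Cyc1 encodes cytochrome c1, which hands the electron to cytochrome c, and Uqcrfs1 encodes the Rieske iron-sulphur protein that passes it to cytochrome c1. In liver these 2 were the complex III members of smallest p: Cyc1 averaged 10.83 ± 0.06 at 24 months and 11.08 ± 0.07 at 6 months (SD, n = 3 each; difference -0.24, SE 0.08, adjusted p = 0.0831). Uqcrfs1 in liver averaged 8.54 ± 0.10 at 24 months and 8.81 ± 0.10 at 6 months (difference -0.28, SE 0.09, adjusted p = 0.0833). In heart, Uqcrfs1 had values of 7.76, 7.73, 7.80 and 7.77 at 24 months, against 7.70, 7.72, 7.60 and 7.67 at 6 months. These groups were just apart, with a difference of 0.09 (SE 0.04, adjusted p = 0.847). In quadriceps the smallest p was that of Uqcr10, at -0.15 (SE 0.07, adjusted p = 0.706).

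Complex IV, cytochrome c oxidase, reduces oxygen to water. Of its 17 genes 11 were lower at 24 months in liver, 12 in quadriceps, 2 in heart and 12 in gastrocnemius, with medians of -0.06, -0.05, 0.04 and -0.16. In gastrocnemius the member of smallest p was Cox7a2l, known for its part in joining complexes III and IV and shortened by an inherited deletion in C57BL/6 strains. It averaged 8.55 ± 0.12 at 24 months and 8.82 ± 0.09 at 6 months, a difference of -0.27 (SE 0.07, adjusted p = 0.13). The lowest difference of any member in gastrocnemius was that of Cox7a1, the heart and muscle form of subunit 7a. Its values were 11.07, 10.94, 11.33 and 10.60 at 24 months, against 11.22, 11.41, 11.64 and 11.22 at 6 months, which overlap, and the difference was -0.39 (SE 0.15, adjusted p = 0.251). Cox5b, a subunit next to the catalytic core, was at -0.31 (SE 0.10, adjusted p = 0.203) in gastrocnemius, and Cox6c and Cox7b were at 0.05 and 0.02. Cox7b2, a testis form, was the 1 gastrocnemius member with a positive difference at an unadjusted p under 0.05, at 0.36 (SE 0.15, adjusted p = 0.276). It lay between 3.40 and 4.16 at 24 months and between 3.42 and 3.54 at 6 months, so the groups overlapped at low values.

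In liver, Cox6a2, the heart and muscle form of subunit 6a, had the smallest p of all members. Its liver values were 7.56, 7.25 and 7.06 at 24 months, against 6.76, 6.77 and 6.74 at 6 months. All 24-month values were higher, by 0.53 (SE 0.12) or 1.45-fold, just outside the threshold (adjusted p = 0.0553). Cox4i2, a form best known from lung, averaged 6.52 ± 0.15 at 24 months and 6.23 ± 0.03 at 6 months in liver, a difference of 0.30 (SE 0.09, adjusted p = 0.0772). Cox8b, the heart and muscle form of subunit 8, averaged 6.22 ± 0.04 at 24 months and 6.03 ± 0.16 at 6 months (difference 0.19, SE 0.10, adjusted p = 0.198), while Cox7a1 was at 0.07 (SE 0.09). The liver values of Cox4i2, Cox8b and Cox7a1 lie near or below the median of all genes on the liver arrays (6.65 to 6.78), whereas those of Cox6a2 at 24 months lie above it. Markers of fast muscle fibres, 6 of 6 measured, averaged 5.95 to 6.21 in liver at 24 months and 5.75 to 5.86 at 6 months, also without overlap. The mean of 4 T cell markers did not overlap either, at 6.21 to 6.58 at 24 months and 5.84 to 6.09 at 6 months. Nor did that of 6 cardiomyocyte markers, at 6.28 to 6.44 at 24 months and 6.09 to 6.21 at 6 months. The same held for the mean of 5 neutrophil markers, at 5.90 to 6.06 at 24 months and 5.56 to 5.72 at 6 months. It held too for that of the 4 measured of 5 B and plasma cell markers, at 5.81 to 6.38 at 24 months and 5.42 to 5.79 at 6 months. The means of all these lists, with that of fast fibres, lay below the median of all genes on the liver arrays. The 3 brown adipocyte markers read beside Cox8b, of which Elovl3 is also known from liver, averaged 7.86 to 8.49 at 24 months and 7.40 to 7.77 at 6 months. Of the 10 expression classes of liver, counted from the lowest, all genes of the class of Cox8b (class 4) had a median age difference of 0.18, those of the class of Cox4i2 (class 5) 0.15 and those of the class of Cox6a2 (class 6) 0.02. Over classes 2 to 5 that median lay between 0.14 and 0.18. The part of any of these in the values of Cox6a2, Cox4i2 and Cox8b was not tested.

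Quadriceps gave Cox7a2, the form of subunit 7a found in most tissues, as the complex IV member of smallest p. It had 10.23, 10.41 and 10.34 at 24 months, against 10.58, 10.46 and 10.49 at 6 months. The groups were apart, with a difference of -0.18 (SE 0.07, adjusted p = 0.678). Cox6a2 in quadriceps had 12.88, 12.91 and 12.89 at 24 months and 13.05, 13.01 and 13.06 at 6 months, a difference of -0.15 (SE 0.06, adjusted p = 0.684), opposite in sign to that in liver. In heart the smallest p of all members was that of Cox6a1, the form of subunit 6a found in most tissues. Its values were 10.90, 10.95, 10.77 and 10.79 at 24 months, against 10.67, 10.71, 10.74 and 10.80 at 6 months. The ranges overlapped, since the highest 6-month value lay above 2 of the 24-month values, with a difference of 0.12 (SE 0.05, adjusted p = 0.834).

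Complex V consists of a catalytic head, a rotating ring and a stalk that holds them. Of its 16 genes 14 were lower at 24 months in liver and 14 in gastrocnemius, 12 in quadriceps and 6 in heart, with medians of -0.11, -0.12, -0.06 and 0.00. In liver, Atp5k (subunit e) had the smallest p of the complex. Its liver values were 9.35, 9.39 and 9.31 at 24 months, against 9.64, 9.62 and 9.67 at 6 months. The groups were apart, and the difference of -0.29 (SE 0.07, 0.82-fold) did not pass (adjusted p = 0.0586). Atp5l (subunit g), which sits beside subunit e in the membrane and helps ATP synthases to pair, had 9.84, 9.85 and 9.94 at 24 months and 10.31, 10.16 and 10.14 at 6 months in liver. Its difference was -0.33 (SE 0.08, adjusted p = 0.0587), and its 6 probe sets had differences from -0.35 to -0.30. Near-identical copies may share signal in liver and quadriceps as well, so the 6 may not be separate measures of the gene. Atp5pb, the stalk subunit b, and Atp5md, a further membrane subunit, were at -0.25 (SE 0.09) and -0.28 (SE 0.12) in liver, whereas Atp5d of the central stalk was at 0.00 (SE 0.07).

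Atp5l also had the smallest p of all members in quadriceps. It had 10.36, 10.58 and 10.73 at 24 months, against 10.80, 10.76 and 10.85 at 6 months. The 24-month values were all lower but spread widely, with a difference of -0.25 (SE 0.10, adjusted p = 0.671). In gastrocnemius Atp5l was at -0.08 (SE 0.08). The gastrocnemius probe set chosen for it is named for chromosome 5 although the gene lies on chromosome 9, so it may measure a near-identical copy. There Atp5g2, 1 of 3 genes for the c subunit of the ring, had the smallest p of the complex. Its values were 11.34, 11.31, 11.47 and 11.23 at 24 months, against 11.48, 11.66, 11.72 and 11.57 at 6 months. The groups were only just apart, with a difference of -0.27 (SE 0.07, 0.83-fold, adjusted p = 0.129). Atp5e, the epsilon subunit of the central stalk, was at -0.37 (SE 0.10, adjusted p = 0.138) and Atp5d at -0.28 (SE 0.08, adjusted p = 0.16) in gastrocnemius, while Atp5a1 and Atp5b, which form the catalytic head, were at -0.03 (SE 0.06) and -0.09 (SE 0.06). In heart the smallest p of the complex was that of Atp5d, at 0.09 (SE 0.05, adjusted p = 0.936).

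The difference of the age differences between tissues of 1 array type was tested as well, and 0 members passed in either pair. For liver minus quadriceps, 0.0151% of all genes passed, and 1 member stood at an unadjusted p under 0.05 against 19.8% of all genes. It was Cox6a2, with an age difference of 0.53 in liver and -0.15 in quadriceps, at 0.68 (SE 0.14, adjusted p = 0.0818, with 0.0112 to 0.175 over the alternatives). For heart minus gastrocnemius, 0.595% of all genes passed, and 19 members stood at an unadjusted p under 0.05 against 13.8% of all genes, all 19 with the higher age difference in heart. That count was 11 under quantile normalization (13.4% of all genes) and 14 to 26 with each array left out (11.4% to 16.4%). The median over the members was 0.15, against 0.00 over all genes. Uqcr11 had the smallest p of them at 0.46 (SE 0.11, adjusted p = 0.0771, with 0.0271 to 0.158 over the alternatives), followed by Cox7a2l at 0.33 (SE 0.08, adjusted p = 0.0814, with 0.0157 to 0.179) and Atp5e at 0.45 (SE 0.12, adjusted p = 0.106).

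Some calls appeared when the fit was changed. In liver, 8 members passed without 24-month replicate 3, of which 6 were lower (Atp5k, Atp5l, Atp5md, Atp5pb, Cyc1 and Uqcrfs1) and 2 higher (Cox6a2 and Cox4i2), but so did 25.5% of all genes. In gastrocnemius, 6 members passed when the spread was estimated jointly with heart, where 2.76% of all genes did so: Uqcr11, Uqcrc1, Cox7a2l, Atp5d, Atp5e and Atp5g2, all lower. For heart minus gastrocnemius, 4 passed without gastrocnemius 24-month replicate 3 (Uqcr11, Cox7a2l, Cox8b and Atp5e; 1.82% of all genes), 2 without gastrocnemius 6-month replicate 1 (1.06%) and 1 without heart 24-month replicate 4 (0.695%). For liver minus quadriceps, Cox6a2 passed without liver 24-month replicate 3, at 0.80 (adjusted p = 0.0218), where 7.34% of all genes did so.

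Between liver and quadriceps the widest differences of the members were those of 3 subunit forms known from heart and muscle. At 6 months 42 of 46 members differed between liver and quadriceps, 8 higher in liver (40.7% of all genes) and 34 lower (27.5% of all genes). Lower in liver were 8 of 9 complex III genes and 14 of 16 complex V genes, each by less than 1 log2 unit, with medians of -0.55 and -0.50 over the 2 complexes. The median of all genes was 0.10 in the same comparison, and the differences below include that shift. Under quantile normalization all genes split into 6166 higher and 7708 lower, and with arrays centred on their medians into 6746 and 6936, against 8111 and 5479 as deposited.

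Cox8b showed the widest gap of all members. In liver at 6 months it lay between 5.84 and 6.15, and in quadriceps between 13.25 and 13.33, a difference of -7.27 (SE 0.08, adjusted p = 1.31e-16) or 154-fold in favour of quadriceps. Cox6a2 lay between 6.74 and 6.77 in liver and between 13.01 and 13.06 in quadriceps at 6 months, a difference of -6.28 (SE 0.10, adjusted p = 1.63e-15). Cox7a1 lay between 6.55 and 6.83 in liver and between 12.38 and 12.61 in quadriceps, a difference of -5.79 (SE 0.10, adjusted p = 3.97e-15). The liver values of these 3 genes lie near or below the median of all genes on the same arrays, where array values follow RNA amounts poorly, so the folds show order of size more than exact amounts.

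The counterparts found in most tissues were higher in liver or did not pass. Cox6a1 lay between 11.17 and 11.19 in liver and between 7.94 and 8.11 in quadriceps, 8.92-fold higher in liver (log2 difference 3.16, SE 0.07, adjusted p = 6.72e-14). Cox8a lay between 11.94 and 11.99 in liver and between 9.79 and 9.87 in quadriceps, 4.36-fold higher in liver (2.12, SE 0.06, adjusted p = 1.09e-12). Cox7a2 did not pass as deposited, at -0.11 (SE 0.08, adjusted p = 0.197), but was lower in liver under quantile normalization (-0.52) and with centred arrays (-0.23). Cox7a2l was higher in liver by 0.98 (SE 0.07). The testis forms Cox6b2, Cox7b2 and Cox8c were higher in liver by 0.52, 1.60 and 0.78, all from low values. Cox4i1, the common form of subunit 4, and Cox4i2 were both lower in liver, at -0.24 and -0.80, and so were Cox6b1 and Cox7b, at -0.57 and -0.43. Sdhd and Atp5g3 were higher in liver by 0.33 and 0.31, and Atp5g3 turned to -0.10 under quantile normalization (adjusted p = 0.325). At 24 months neither passed, at 0.10 for Sdhd (adjusted p = 0.309) and 0.22 for Atp5g3 (adjusted p = 0.0573). The other c subunit genes, Atp5g1 and Atp5g2, were lower in liver, at -0.89 and -0.51. At 24 months the same contrast called 7 members higher in liver and 35 lower, with Cox8b at -7.02, Cox6a2 at -5.60 and Cox6a1 at 3.03. Of all 19928 genes, 9003 were called higher and 5098 lower there, and the median of all genes was 0.17.

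**Figure D3:**
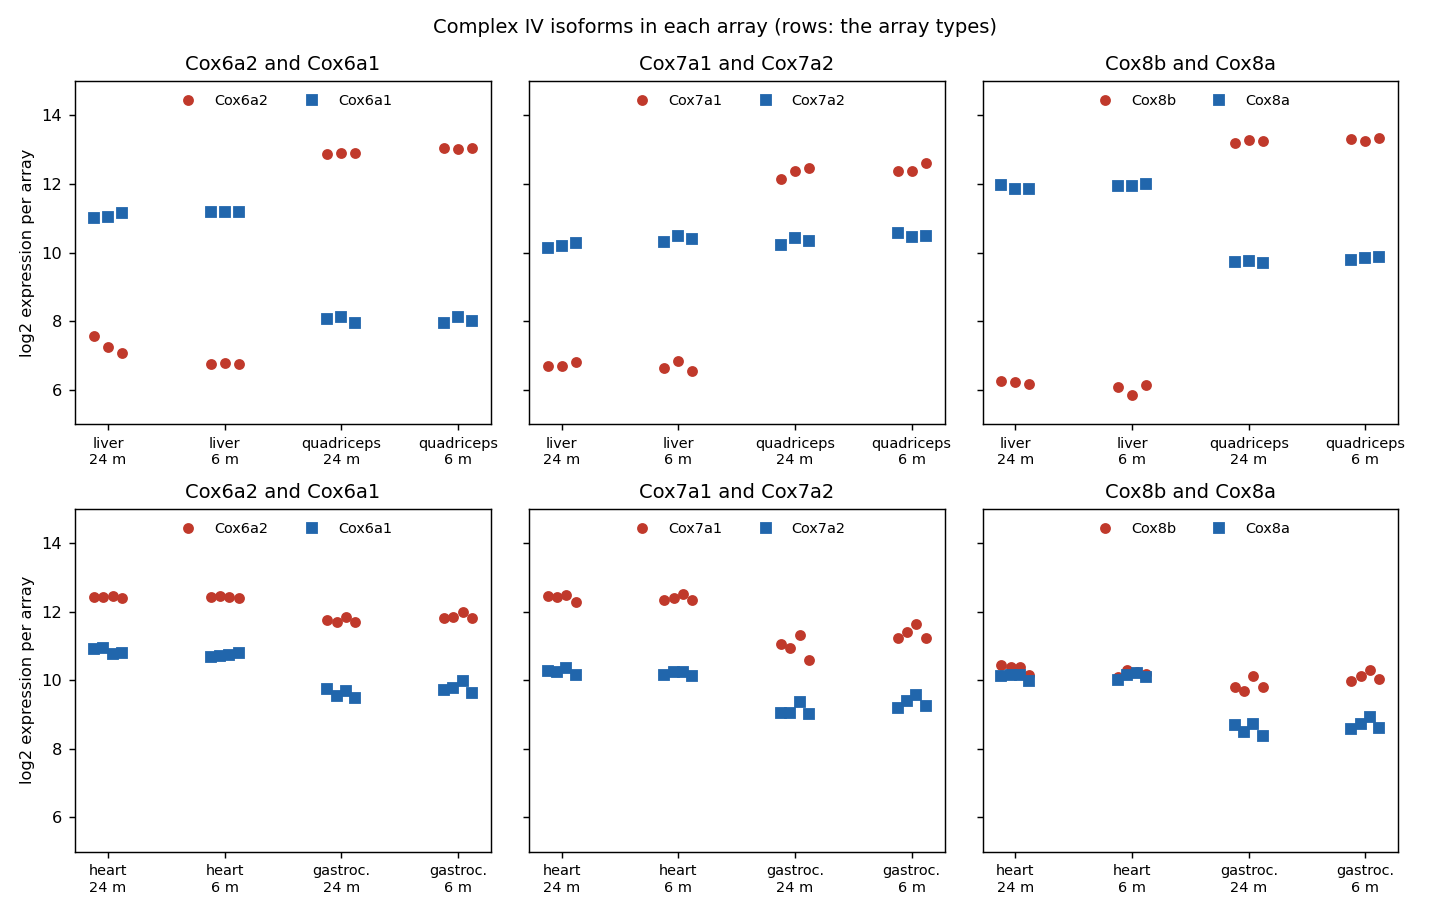
Log2 expression (vertical axis) of the heart and muscle form (circles) and the form found in most tissues (squares) of subunits 6a, 7a and 8 in every array, with liver and quadriceps above and heart and gastrocnemius below, each at 24 and 6 months (m). Within a gene, groups may be compared along a row; Cox8b lies between 5.84 and 6.25 in liver and between 13.19 and 13.33 in quadriceps.

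Between heart and gastrocnemius, both striated muscles, the pairs of forms did not switch. At 6 months 42 of 46 members were higher in heart (60.8% of all genes) and 0 lower (14.7% of all genes), with a median of 0.66. The median of all genes was itself 0.27 here. With arrays centred on their medians, 31 members were higher and 3 lower, and all genes split into 7880 higher and 11182 lower, against 18264 and 4427 as deposited. Under quantile normalization 43 members were higher and 1 lower, and all genes split into 9003 and 9629. The largest differences were those of Cox8a (1.41, SE 0.08), Atp5g3 (1.29, SE 0.08), Atp5h (1.09, SE 0.06) and Cox7a1 (1.03, SE 0.12). Cox8a, Atp5g3 and Cox7a1 were higher in heart under both scalings too. Relative to the median of all genes these 4 were at 1.14, 1.02, 0.83 and 0.77.

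Both forms of subunit 6a were higher in heart: Cox6a2 lay between 12.41 and 12.45 in heart and between 11.80 and 11.98 in gastrocnemius at 6 months, and Cox6a1 between 10.67 and 10.80 in heart and between 9.64 and 9.99 in gastrocnemius. Their differences were 0.57 (SE 0.05) and 0.95 (SE 0.08). Cox7a2, the counterpart of Cox7a1, was higher in heart by 0.83 (SE 0.09). Cox8b, with 10.09 to 10.29 in heart and 9.97 to 10.31 in gastrocnemius, did not pass at 6 months as deposited (0.10, SE 0.09, adjusted p = 0.364), stood at 0.27 under quantile normalization (adjusted p = 0.00948) and turned to -0.22 with centred arrays (adjusted p = 0.0556). At 24 months, with 10.15 to 10.43 in heart and 9.68 to 10.12 in gastrocnemius, it did (0.49, adjusted p = 1.81e-04). Its counterpart Cox8a was at 1.09 at 6 months with centred arrays, opposite in sign to Cox8b under that scaling. The c subunit genes were at 0.33 (Atp5g1), 0.15 (Atp5g2) and 1.29 (Atp5g3), and centred arrays turned Atp5g2 to -0.17 and left Atp5g1 at 0.01. Cox4i1 and Cox4i2 were higher in heart by 0.76 and 0.68, and Cox6b1 and Cox7b by 0.69 and 0.68. Cox7a2l, higher by 0.37, stood at 0.05 with centred arrays (adjusted p = 0.515). Not past the threshold at 6 months were Uqcrfs1 (0.03), Atp5e (0.17), Cox8b and Cox8c (-0.16). At 24 months 45 members were higher in heart, all but Cox8c. Of all 30063 genes, 18337 were called higher and 4203 lower there, and the median of all genes was 0.27.

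**Figure D4:**
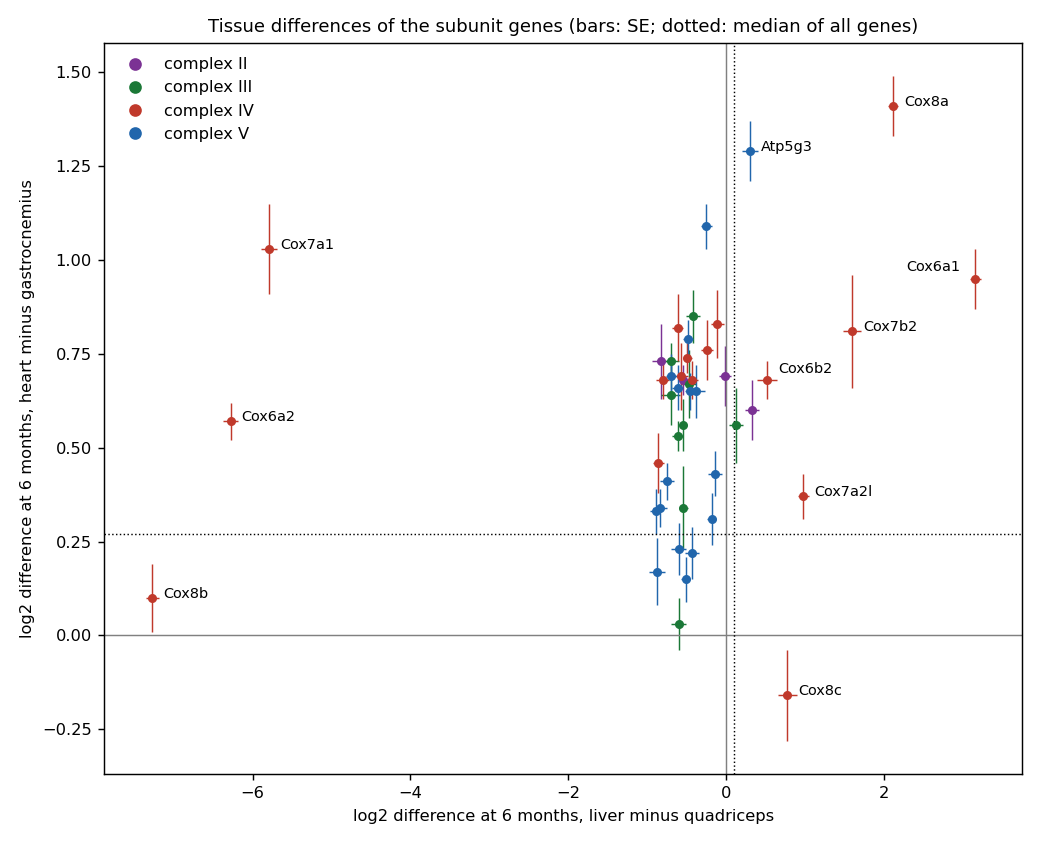
Each point is 1 of the 46 subunit genes at 6 months, with the log2 difference liver minus quadriceps on the horizontal axis, heart minus gastrocnemius on the vertical axis, SE bars and colours by complex. Dotted lines mark the medians of all genes (0.10 and 0.27); Cox8b, Cox6a2 and Cox7a1 stand far to the left, at -7.27 to -5.79, and Cox8a and Cox6a1 to the right.

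The promoters of the forms of subunits 6a, 7a and 8 are shown because Cox8b, Cox7a1, Cox6a1 and Cox8a were among the members of largest difference between liver and quadriceps, with Cox7a2, of small difference, beside Cox7a1. That of Cox6a2 is not shown. They hold the 250 bases before the RefSeq start (build GRCm38.p6), 5′ to 3′ on the strand of the gene. RefSeq windows were found for 34 of the 46 members. Capitals mark matches, on either strand, to CAGCTG (an E-box bound by myogenic factors), GCGCATGC (the core of the NRF1 site), CCGGAAG (an ETS and GABP site), AAGGTCA (an ERR half-site) and CCAAT. NRF1, GABP and ERR are factors known to bind promoters of respiratory genes. First come 2 heart and muscle forms, Cox7a1 at chr7:30183921-30184170 (plus strand) and Cox8b at chr7:140900447-140900696 (minus strand).
Cox7a1: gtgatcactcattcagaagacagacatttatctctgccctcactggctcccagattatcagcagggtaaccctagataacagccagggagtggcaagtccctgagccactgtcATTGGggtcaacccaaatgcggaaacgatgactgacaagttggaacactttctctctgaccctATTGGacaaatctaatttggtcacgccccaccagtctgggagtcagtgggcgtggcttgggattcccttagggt
Cox8b: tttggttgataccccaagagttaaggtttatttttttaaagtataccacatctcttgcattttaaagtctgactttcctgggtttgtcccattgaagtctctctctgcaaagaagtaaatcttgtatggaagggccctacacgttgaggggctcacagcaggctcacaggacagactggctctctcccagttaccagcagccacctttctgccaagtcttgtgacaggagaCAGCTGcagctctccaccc

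Then come 3 forms found in most tissues, Cox6a1 at chr5:115348959-115349208, Cox7a2 at chr9:79759854-79760103 and Cox8a at chr19:7217617-7217866, all on the minus strand.
Cox6a1: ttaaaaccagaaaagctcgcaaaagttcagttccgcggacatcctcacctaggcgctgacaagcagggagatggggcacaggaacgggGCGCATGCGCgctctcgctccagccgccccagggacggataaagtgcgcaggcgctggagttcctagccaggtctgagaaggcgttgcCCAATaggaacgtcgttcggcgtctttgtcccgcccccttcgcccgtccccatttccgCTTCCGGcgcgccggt
Cox7a2: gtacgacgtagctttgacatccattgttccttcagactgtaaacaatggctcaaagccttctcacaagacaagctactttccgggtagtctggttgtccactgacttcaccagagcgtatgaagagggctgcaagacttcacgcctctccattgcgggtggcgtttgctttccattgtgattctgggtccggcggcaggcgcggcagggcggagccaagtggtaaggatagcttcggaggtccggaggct
Cox8a: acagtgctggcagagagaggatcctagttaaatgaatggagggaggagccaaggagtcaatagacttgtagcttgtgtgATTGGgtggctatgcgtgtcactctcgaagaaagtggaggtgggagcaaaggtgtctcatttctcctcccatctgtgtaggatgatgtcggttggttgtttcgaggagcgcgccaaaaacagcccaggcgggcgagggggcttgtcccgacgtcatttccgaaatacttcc

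Cox8b alone of the 5 held CAGCTG, which is in 13.0% of the 32851 RefSeq windows of this length. Cox6a1 held GCGCATGC, as a pair of matches on opposite strands that overlap, and CCGGAAG, which are in 2.26% and 6.91% of windows. Cox7a1 held CCAAT at 2 places and Cox6a1 and Cox8a at 1 each, against 33.8% of windows with at least 1. Cox7a2 held none of these letters. Over the 34 members, CAGCTG was in 5.88%, GCGCATGC in 14.7%, CCGGAAG in 23.5%, AAGGTCA in 5.88% (4.08% of all windows) and CCAAT in 55.9%. The matches describe letters in these windows and not binding.

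Other genes of the pathway were read from a list of 46. Of these, 36 were measured in liver and quadriceps and 33 in heart and gastrocnemius. They were mostly assembly factors, with cytochrome c, the complex IV subunit Ndufa4 and the ATP synthase inhibitor Atpif1. The mitochondrially encoded subunits on the list had no values in any tissue. None of the measured genes passed the threshold for age in any tissue. In liver 31 of 36 were lower at 24 months with a median of -0.14, and 9 stood at an unadjusted p under 0.05, all lower, where 32.8% of all genes did so. Fastkd1, a mitochondrial RNA-binding protein, had the smallest p there, at -0.48 (adjusted p = 0.0543). In quadriceps 26 of 36 were lower (median -0.05, 0 at an unadjusted p under 0.05, against 7.05% of all genes), in heart 20 of 33 (median -0.01, 2, against 5.99%) and in gastrocnemius 20 of 33 (median -0.03, 5, against 16.5% of all genes). Beside the gastrocnemius median of -0.03 stands that of the subunits, -0.14, and the difference was not tested. Atpaf2, an assembly factor of the catalytic head of complex V, had the smallest p there, at -0.33 (adjusted p = 0.123).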

How the data were processed

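Total RNA of 4 tissues was amplified and hybridised to Affymetrix arrays of 2 types, per the labels' protocols. The authors deposited log2 expression values, 1 per probe set and array, in 2 tables. RMA is named in the submitters' processing notes, with no version given in the sources used here. RMA is meant to remove shifts common to most genes of an array, but the array medians of the genes used still differed. They were 5.84 to 5.95 in heart, 5.54 to 5.63 in gastrocnemius and 6.65 to 6.78 in liver. In liver they did not overlap between the ages, at 6.72 to 6.78 at 24 months and 6.65 to 6.68 at 6 months. The tables gave 19928 and 30063 genes with a probe set of 1 symbol, updated through RefSeq (GRCm38.p6, names only). Probe sets with several or no symbols were left out, and Atp5pb carries an older symbol on the second array type. Genes with several probe sets (12 members on the first type, 3 on the second) were represented by that of highest mean, and near-identical copies may share signal. Ages were compared per tissue, and tissues within a table, with lmFit and eBayes of limma 3.58.1 in R 4.3.3, Benjamini-Hochberg adjusted over all genes, at 0.05. The fits were tested on artificial data. Replicates share numbers in the titles, but in no pair of groups did every same-numbered pair of arrays deviate together (correlations -0.22 to 0.299), so they were not treated as pairs. No pair of arrays was a duplicate (at most 3.31% identical values). The number of arrays limits the precision. Members, lists and tests were chosen with earlier results of these data known. Any member may be named; values in every array are given for the 2 of smallest p per tissue and for further members chosen after their values were seen, and ranges or means for the isoform sets. Alternatives were other scalings, filters, priors, weights, blocks, joint fits and left-out arrays.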

Additional observations from a re-analysis of the deposited data

Results flagged for a closer look

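In heart and gastrocnemius, with 4 arrays per group, 15 of 184 groups of a member's values held an array that Dixon's test flagged as apart from the other 3. Chance would give about 9.2 in independent groups, but these groups share arrays, so that number is only a rough guide. In gastrocnemius at 24 months, replicate 3 was high for Uqcr10 (8.04, others 7.73 to 7.78), Uqcrc2 (10.97, others 10.87 to 10.88), Cox7a2 (9.36, others 9.01 to 9.04), Cox7a2l (8.72, others 8.47 to 8.51) and Atp5h (8.76, others 8.58 to 8.60). In gastrocnemius at 6 months, replicate 4 was low for Sdha (10.55, others 10.65 to 10.67) and Atp5l (10.96, others 11.15 to 11.16). In heart at 24 months, replicate 4 was high for Sdha (11.33, others 11.23 to 11.24) and low for Atp5e (8.17, others 8.37 to 8.40), and replicate 2 was high for Cox7b2 (4.61, others 4.23 to 4.28). In heart at 6 months the gaps were small: replicate 3 was at 11.65 for Cox6b1 (others 11.58), 10.91 for Atp5g3 (others 10.95), 6.93 for Atp5j2 (others 6.94) and 11.59 for Atp5md (others 11.57), and replicate 1 at 10.14 for Atp5d (others 10.21 to 10.22). For Cox6b1, Atp5g3, Atp5j2 and Atp5md the other values were equal as rounded, and such a tie alone makes the test flag the remaining array.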

How the results depend on the processing

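The count of members called for age was 0 in every tissue. The share of all tested genes called stands in brackets. In liver it became 6 with arrays centred on their median (9.84%) and 4 with dim genes left out (17.0%). It was 4 with an intensity trend and robust prior (11.3%), 13 with array weights (39.6%) and 5 in the joint fit with quadriceps (18.2%). With each array left out in turn it was 0 to 8 (0.0% to 25.5%). In gastrocnemius it became 6 in the joint fit with heart (2.76%). The count for the difference between liver and quadriceps became 1 with dim genes left out (1.72%). It was 1 with the trend and robust prior (0.798%), 2 with array weights (12.7%) and 0 to 1 with arrays left out (0.0% to 7.34%). That for heart and gastrocnemius became 2 with dim genes left out (2.85%) and 6 with array weights (2.46%). It was 3 with the replicate number as a block (0.669%) and 0 to 4 with arrays left out (0.0732% to 1.82%). Of the tissue differences at 6 months, 42 in each pair, 12 (liver against quadriceps) and 9 (heart against gastrocnemius) exceeded a minimum of 1.5-fold. The liver median of -0.10 became -0.04 under quantile normalization, -0.04 under cyclic loess, -0.19 with centred arrays and -0.11 to -0.09 with arrays left out. Leaving out arrays moved the other medians over -0.08 to 0.01 in quadriceps, 0.01 to 0.03 in heart and -0.19 to -0.09 in gastrocnemius. Atp5g3 turned to -0.10 in liver against quadriceps under quantile normalization, and Atp5g2 to -0.17 in heart against gastrocnemius with centred arrays. The block did not come from a known pairing: in 0 of 12 pairs of groups did every same-numbered pair correlate above 0.1, although 3 of 4 did between the gastrocnemius ages (0.129, -0.045, 0.214 and 0.299). With the block 25 gastrocnemius members stood at an unadjusted p under 0.05 (19.0% of all genes), against 18 without (16.5%). Apart from the 3 above, the block changed no count of age calls among members. Over all genes it left 0 age calls in each tissue. With 3 or 4 arrays per group the median SE of an age difference was 0.10, 0.08, 0.06 and 0.07 in liver, quadriceps, heart and gastrocnemius. Over all genes, age calls ranged over the alternatives from 0 to 7897 in liver (65 as reported), 0 to 18 in quadriceps (1), 0 to 25 in heart (2) and 0 to 829 in gastrocnemius (3), and those for the difference between tissues from 0 to 2523 in liver against quadriceps (3) and 22 to 739 in heart against gastrocnemius (179). The minimum fold left 5388 of 13590 and 3993 of 22691 tissue calls over all genes. The causes of these changes were not tested.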

Other observations

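The rule matched a few genes on 1 array type only. Cox7c, a small subunit of complex IV, was at 0.04 (SE 0.05) in heart and -0.03 (SE 0.06) in gastrocnemius, 24 minus 6 months. Atp5c1, the gamma subunit that turns within the head of complex V, was at -0.17 (SE 0.08, adjusted p = 0.167) in liver and 0.03 (SE 0.08) in quadriceps. Dmac2, whose older symbol matched on the second type, was at -0.26 (SE 0.09, adjusted p = 0.214) in gastrocnemius, 0.01 (SE 0.05) in heart, 0.02 (SE 0.08) in liver and -0.19 (SE 0.08, adjusted p = 0.703) in quadriceps. Of the members with several probe sets, Atp5l varied most in level on the second type, from 5.46 to 11.07 in gastrocnemius over 3 probe sets, with age differences from -0.08 to 0.08. Uqcr11 in quadriceps had -0.06 and 0.02 from its 2 probe sets, and in liver 0.06 and 0.13.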
